A study of Mus musculus with 1457 samples.

Results

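The Hox genes of the mouse were followed through single cells sorted from the AGM region, the part of the embryo around the dorsal aorta, gonads and mesonephros in which blood stem cells arise from endothelium. Genes were taken by name, as Hox followed by a cluster letter from a to d and a number. This gave 39 genes of the 49677 in the table of the ACE sorts. The larger table held 38 of them, since the copy used here ends before Hoxd4. The 38 genes held whole in both tables, of 36131 such genes, are described below, and Hoxd4 is given separately.

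The study sorted single cells from ICR mouse embryos and measured polyA RNA with Smart-seq2, a plate method that reads whole transcripts. It held 1457 cells in 19 groups of stage, sort gate, reporter line and genotype. No label named an embryo or litter, so cells of a group were not counted as replicates and each group was 1 summed sample. In the Gfi1/Gfi1b line, the transcription factor genes Gfi1 and Gfi1b carry Tomato and GFP reporters. Heterozygous embryos (Gfi1:Tomato/WT Gfi1b:GFP/WT) gave CDH5+ endothelium without either reporter (Endo, 74 cells at E10.5 and 16 at E11.5), CDH5+ hemogenic endothelium with the GFI1 reporter alone (HE, 95 and 40 cells), CD41+ KIT+ cells with GFI1 alone in transition from endothelium to blood (EHT, 41 cells at E10.5), and intra-aortic hematopoietic clusters with both reporters (IAHC, 42 and 22 cells). A further 41 Endo, 43 HE and 42 EHT cells of that genotype had E11.5 in the title and E10.5 in the stage field, and were kept apart as titled E11.5. Homozygous embryos (Gfi1:Tomato/Tomato Gfi1b:GFP/GFP, labelled KO) gave 42 cells of the HE gate, from E10.5.

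The Runx1b line carries an RFP reporter at Runx1b, the product of 1 promoter of the blood regulator gene Runx1. Runx1b:RFP/WT embryos at E10.5 gave 53 Endo cells, HE cells sorted as CDH5+ RUNX1b+ (17.98% of all cells of the study), and CDH5- RUNX1b+ cells of the mesenchyme around the aorta (Mes, 7.34%). Runx1b:RFP/RFP embryos gave 91 Mes cells. In a further 19.01% of all cells, HE cells of this line, the title says KO and the genotype entry says Runx1b:RFP/WT; these are called titled KO here. At E10.5, Gfi1:Tomato/WT embryos were also sorted on ACE, a surface enzyme (CD143), into 14 ACE- GFI1- cells, ACE+ GFI1- cells (7.96% of all) and 39 ACE+ GFI1+ cells. All groups other than those of the homozygous and titled KO embryos carry 1 reporter allele at the marked genes, and none is free of a reporter.

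Hox genes encode homeodomain transcription factors that tell cells where they lie along the body axis. They sit in 4 clusters, and within a cluster the genes of lower paralog number are switched on earlier and further forward, while those of higher number come on later and further back. The factors bind DNA together with PBX and MEIS proteins. Hoxa9 and its neighbours are also known as regulators of blood stem cells, and their loss in culture has been tied to failure to make such cells.

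The total per cell ranged from 12 to 5652968 reads (median 598000), and the sums from 14577594 to 199887490. Some groups stood apart. Of the 22 E11.5 IAHC cells, 14 were erythroid-like (at least 1% of reads on globin genes), as were 16 of 95 E10.5 HE, 31 (11.8%) of the Runx1b HE and 10 (9.35%) of the heterozygous Mes cells. Of the Runx1b HE cells, 50% had reads of fewer than 10 of 20 pan-endothelial genes, and their sum held 5120 CPM (reads per 1000000 reads) of 20 mesenchyme genes, against 7.48 to 243.9 CPM in the other heterozygous CDH5+ groups of the Gfi1/Gfi1b and ACE sorts and the Runx1b Endo cells. Gfi1b was read at 52.1 CPM in E10.5 HE, a gate without its reporter. The group of 22 E11.5 IAHC cells had the fewest genes per cell (median 3563).

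On GRCm38, in the GENCODE annotation, the Hoxa cluster holds 11 genes on chromosome 6 (52155590 to 52260880, minus strand, 105.3 kb). The Hoxb cluster holds 10 on chromosome 11 (96194316 to 96368256, plus strand, 173.9 kb). The Hoxc cluster holds 9 on chromosome 15 (102921103 to 103036852, plus strand, 115.8 kb), and the Hoxd cluster 9 on chromosome 2 (74668310 to 74765142, plus strand, 96.8 kb). The Hoxa10 to Hoxa7 stretch has Hoxa9 at 52223100 to 52231089 and Hoxa10 starting at 52231197, so the annotated genes lie next to each other without overlap. Some values are uncertain because transcripts overlap and the strand setting of the counting is not given in the sources used here. Hoxd3 shares 62.3% of its exon bases with other genes on its own strand, among them Hoxd4. Antisense genes cover 52.9% of Hoxb3, 27.3% of Hoxb2, 25.4% of Hoxa3 and 20.4% of Hoxa7 exon bases.

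Promoter windows of 300 bases around the transcript start, from RefSeq on GRCm38.p6, were at hand for 22 of the Hox genes (24 windows). The 4 shown belong to genes the results turn on: Hoxa9 and Hoxa7, read in the most cells, Hoxc4, a gene of the mesenchymal cells, and Hoxb8, whose window held the most motif matches. Capitals mark motif matches on either strand.
Hoxa9, chr6:52227321-52227620, minus strand: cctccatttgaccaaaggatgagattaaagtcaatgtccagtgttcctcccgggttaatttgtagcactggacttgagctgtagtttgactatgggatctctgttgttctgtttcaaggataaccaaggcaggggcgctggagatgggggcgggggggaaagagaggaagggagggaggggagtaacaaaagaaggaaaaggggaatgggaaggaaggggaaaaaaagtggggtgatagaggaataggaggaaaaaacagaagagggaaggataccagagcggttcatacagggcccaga
Hoxa7, chr6:52218524-52218823, minus strand: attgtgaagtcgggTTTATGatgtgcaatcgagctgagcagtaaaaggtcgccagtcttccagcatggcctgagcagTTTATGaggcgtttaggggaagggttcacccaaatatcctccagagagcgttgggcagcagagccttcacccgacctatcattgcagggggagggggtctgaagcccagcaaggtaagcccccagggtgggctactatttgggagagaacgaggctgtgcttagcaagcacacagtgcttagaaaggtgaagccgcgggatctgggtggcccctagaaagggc
Hoxb8, chr11:96281655-96281954, plus strand: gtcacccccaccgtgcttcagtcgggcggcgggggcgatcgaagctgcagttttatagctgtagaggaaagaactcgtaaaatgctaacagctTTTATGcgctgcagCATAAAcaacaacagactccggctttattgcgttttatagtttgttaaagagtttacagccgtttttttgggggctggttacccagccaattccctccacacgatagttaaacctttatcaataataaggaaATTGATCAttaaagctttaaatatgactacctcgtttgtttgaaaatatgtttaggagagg
Hoxc4, chr15:103034145-103034444, plus strand: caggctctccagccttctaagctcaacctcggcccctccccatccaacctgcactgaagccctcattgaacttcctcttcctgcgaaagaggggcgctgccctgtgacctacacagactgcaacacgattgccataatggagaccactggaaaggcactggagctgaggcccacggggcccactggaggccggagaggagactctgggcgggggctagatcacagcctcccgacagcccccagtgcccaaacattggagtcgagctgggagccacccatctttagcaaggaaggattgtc
Motifs searched were TGTGGT for RUNX factors, TGACAG for MEIS, TGATNNAT for PBX-HOX pairs and TTTATG for CDX, the caudal-type factors that act upstream of Hox genes. Of the 24 Hox windows, 1 held the RUNX letters, 2 the MEIS, 4 the PBX-HOX and 5 the CDX letters. Over all 32851 promoter windows of that length the shares were 16.8%, 19.2%, 8.85% and 11.9%. The capitals in Hoxa7 are 2 CDX matches, and those in Hoxb8 are 2 CDX matches and 1 PBX-HOX match. The Hoxa9 and Hoxc4 windows held none of the 4 motifs.

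Hox reads were found in 1314 of 1457 cells (90.2%). Hoxa9, at the 5′ side of the Hoxa cluster, led with 97659 reads in 904 cells (62.05%). Hoxa7 was read in 748 cells, Hoxa5 in 644, Hoxb7 in 580, Hoxb5 in 540 and Hoxa10 in 493. At the other end, Hoxb13 and Hoxc12 had no read in any cell, which allows at most 3 reads over all sums, and 4 more genes had under 100 reads (Hoxc11 73, Hoxc13 28, Hoxd11 83 and Hoxd13 5). All 6 belong to paralog groups 11 to 13, which are used in the tail and the limb ends. The other genes of those groups, Hoxa11, Hoxa13 and Hoxd12, reached at most 4.27, 1.57 and 2.75 CPM in any group.

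Erythroid-like cells give a measure of the background. Among all 83 such cells, 10 had a Hox read (12.05%, exact 95% interval 5.93 to 21.04), with a median of 846923 reads per cell. Among the other 1374 cells, 1304 did (94.9%), with a median of 585306 reads. The summed Hox level was 9.86 CPM in the erythroid-like cells and 380.2 CPM in the others. All 79 of the other E10.5 HE cells had a Hox read, as did 100% of the other Runx1b HE cells. Reads of this method are not counted as molecules, and intervals cover counting error only, and a lower sum can come from fewer cells with reads or fewer reads in each.

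**Figure D1:**
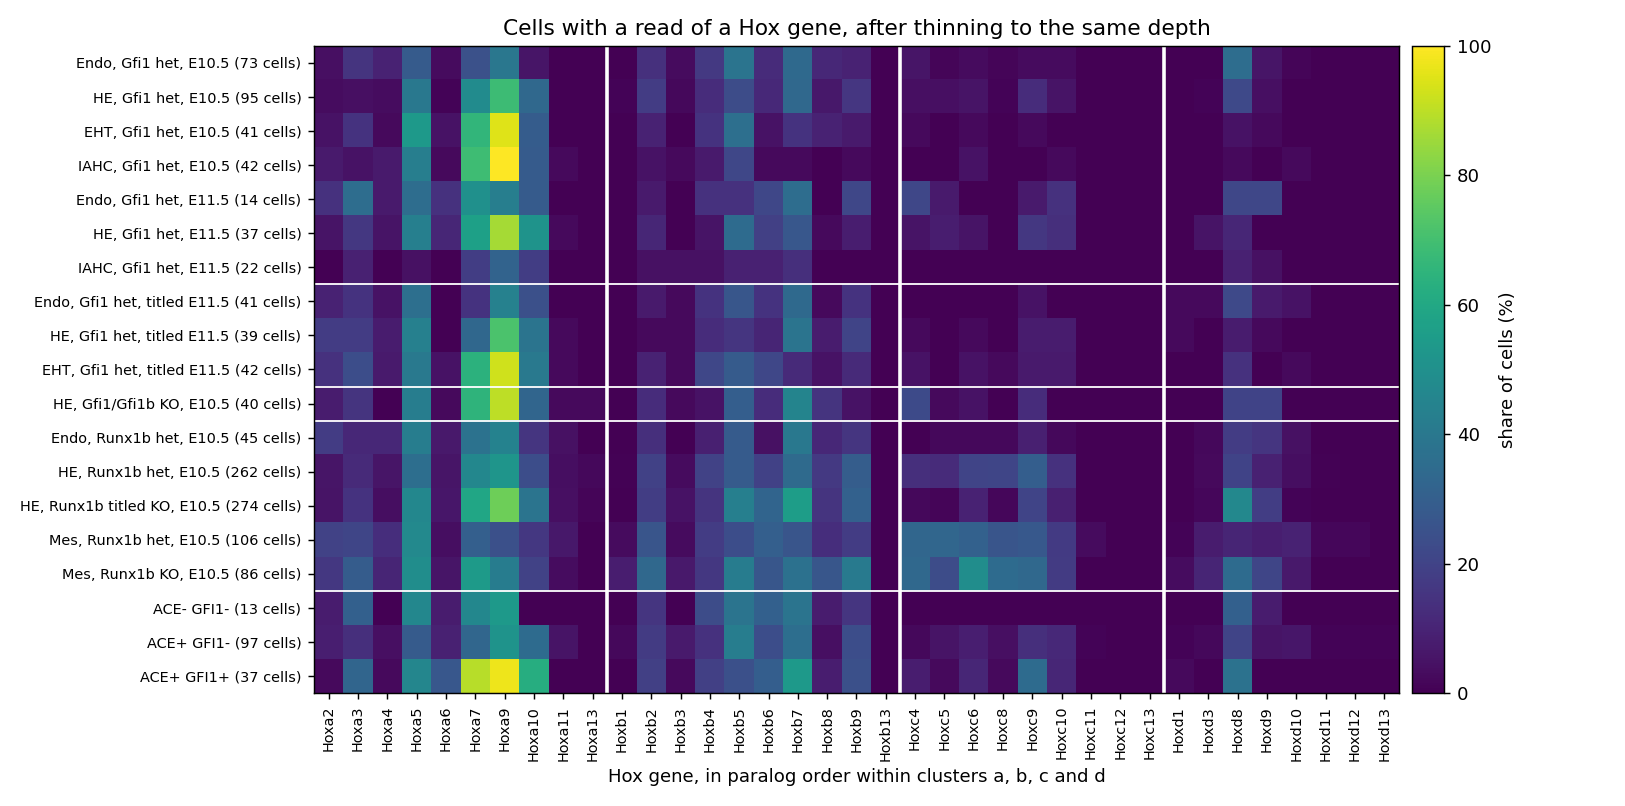
Share of cells with at least 1 read of a Hox gene (colour, 0 to 100%), after each cell was thinned to 100000 reads. Rows are groups with their number of cells at that depth, columns the genes named on the axis, by cluster. Hoxa9 forms the brightest column, at 100% of the 42 E10.5 IAHC cells, and the Hoxc columns are bright in the Mes groups.

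The levels of different genes are compared per kb of exon. By mean CPM, which is not scaled for length, over the 14 heterozygous sums of the Endo, HE, EHT and IAHC gates, the 10 highest genes were Hoxa9 (112.6, range 26.7 to 202.4), Hoxa7 (33.7), Hoxa5 (32.3), Hoxb7 (20.1), Hoxa10 (16.2), Hoxd8 (11.3), Hoxb5 (10.3), Hoxb9 (10.1), Hoxa3 (5.54) and Hoxb6 (5.08). Per kb of exon, these means were 20.2 CPM for Hoxa9, 17.2 for Hoxa5, 13.03 for Hoxb7 and 11.7 for Hoxa7, and the other 6 genes stood at 4.96 or lower. The order per kb differed between gates. In E10.5 Endo of the Gfi1/Gfi1b line, Hoxb7 stood at 15.4 CPM per kb, Hoxa7 at 9.10 and Hoxa9 at 7.20. In the matching HE the values were 13.8, 10.7 and 18.1 CPM per kb. In EHT they were 2.23, 16.6 and 35.01, so Hoxa9 stood above Hoxb7 in HE and EHT and below it in Endo.

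The first question was how hemogenic endothelium differs in Hox genes from endothelium that lacks the reporters. In the ACE set, HE is the ACE+ GFI1+ cells and Endo the ACE- GFI1- cells. In that set, ACE and GFI1 cannot be told apart by this test. Hoxa9 rose in HE, and all 6 Hoxc genes tested had higher fitted levels in HE without passing the test. Of 8 Hoxb genes tested, 7 had a small positive difference (median log2 0.32). Of 38 genes, 26 passed the filter on low counts. Only Hoxa9 passed the test, in a fit where 1.4% of 14553 genes were called (0.886% upward and 0.515% downward). At an unadjusted p under 0.05 the same fit held 7 Hox genes, all higher in HE, against 11.4% of all genes higher and 7.96% lower in HE at that level.

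Hoxa9, a factor needed for the growth of blood stem and progenitor cells, was at 101.1 CPM in E10.5 HE, 194.1 in E11.5 HE, 80.4 in Runx1b HE and 110.9 in ACE+ GFI1+ cells. The Endo sums of the same sorts held 40.2, 38.8, 36.7 and 26.7 CPM. Within these 4 sort sets the groups did not overlap, and HE was higher in each set (7.18% of all genes had every HE sum above every Endo sum, and 5.7% below). The titled E11.5 set was outside this test. Its HE sum was 202.4 CPM, and its Endo sum (116.4 CPM) lay above the HE sums of E10.5, Runx1b and ACE. Means were 121.6 ± 49.9 CPM in HE and 35.6 ± 6.09 in Endo (SD, n = 4 sums each). The log2 fold change was 1.79 ± 0.23 (SE), with an adjusted p of 0.0366 by edgeR (quasi-likelihood fit, Benjamini-Hochberg adjusted over all genes, with the sort set as a block). Leaving out any 1 of the sets ended the call (log2 fold change 1.58 to 1.96, adjusted p 0.0673 to 0.187), in fits that called 0 to 0.895% of all genes. With the titled E11.5 set added the Hoxa9 log2 fold change was 1.57 (adjusted p = 0.0411 by edgeR, 1.25% of all genes called). Where nothing says that sums came from separate embryos, these p-values measure the spread between sorts, which may be technical.

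The share of cells with a Hoxa9 read was also higher in HE than in Endo in each of the 4 sets. After each cell was thinned to 100000 reads, Hoxa9 was read in 39.7% of E10.5 Endo cells and 68.4% of E10.5 HE cells. At E11.5 the shares were 42.9% and 86.5%, and in the ACE- GFI1- and ACE+ GFI1+ cells 53.8% and 97.3%. In the Runx1b line they were closer, at 44.4% and 52.3%. Hoxa9 reads were thus present in many Endo cells, and absent from some HE cells.

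The median log2 difference of the 6 Hoxc genes was 3.70. Over all 26 Hox genes, 22 were positive and 4 negative (median 0.72, against 0.09 over all genes tested). Hoxc9, a posterior gene of trunk mesoderm and spinal cord, was at 5.12, 13.7, 18.1 and 12.1 CPM in the HE sums of E10.5, E11.5, Runx1b and ACE. The Endo sums held 0.921, 0.577, 1.19 and 0.343 CPM. No sum overlapped, but the adjusted p was 0.0709 (log2 fold change 4.10 ± 0.76). It passed without the block (log2 fold change 4.09, adjusted p = 0.0223) and with thinned cells (3.95, adjusted p = 0.0301), by the same edgeR test. In cells with at least 10 pan-endothelial genes alone, Hoxc9 stood at 6.54, 13.7, 10.8 and 12.1 CPM in HE. The mesenchyme list was also higher in these HE sums (90.2, 104.8, 5120 and 110.2 CPM against 13.9, 7.48, 37.2 and 20.4 in Endo), and its part in the Hoxc values was not tested.

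Hoxa10, a posterior neighbour of Hoxa9, followed it in direction. HE held 13.4, 51.98, 18.5 and 22.6 CPM and Endo 2.61, 19.95, 5.01 and 0.274 CPM in the order E10.5, E11.5, Runx1b and ACE. HE was higher in 4 of 4 sets, the groups overlapped, and the gene did not pass (log2 fold change 2.78 ± 0.89, adjusted p = 0.179 by edgeR). The ACE+ GFI1- cells, which were outside this test, had a Hoxa10 level like that of the ACE+ GFI1+ cells. Hoxa7 was at 30.8, 42.9, 39.5 and 56.8 CPM in HE and 26.2, 33.6, 26.97 and 19.3 in Endo (log2 0.75 ± 0.29, adjusted p = 0.239 by edgeR). Of 11 central genes tested, 0 passed by edgeR, and 3 were higher in HE at an unadjusted p under 0.05, with a median log2 difference of 0.45 over the 11. Hoxb7, Hoxa5 and Hoxd8 were among the central genes of highest level. Hoxb7 stood at 21.2 to 27.4 CPM in HE and 14.7 to 24.8 in Endo, and Hoxa5, needed for lung and neck patterning, at 29.2 to 55.2 and 19.98 to 47.7 CPM. Hoxd8 ranged from 12.3 to 17.9 CPM in HE and from 6.79 to 31.2 in Endo. Their adjusted p-values in the edgeR fit were 0.6004, 0.707 and 0.821.

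**Figure D2:**
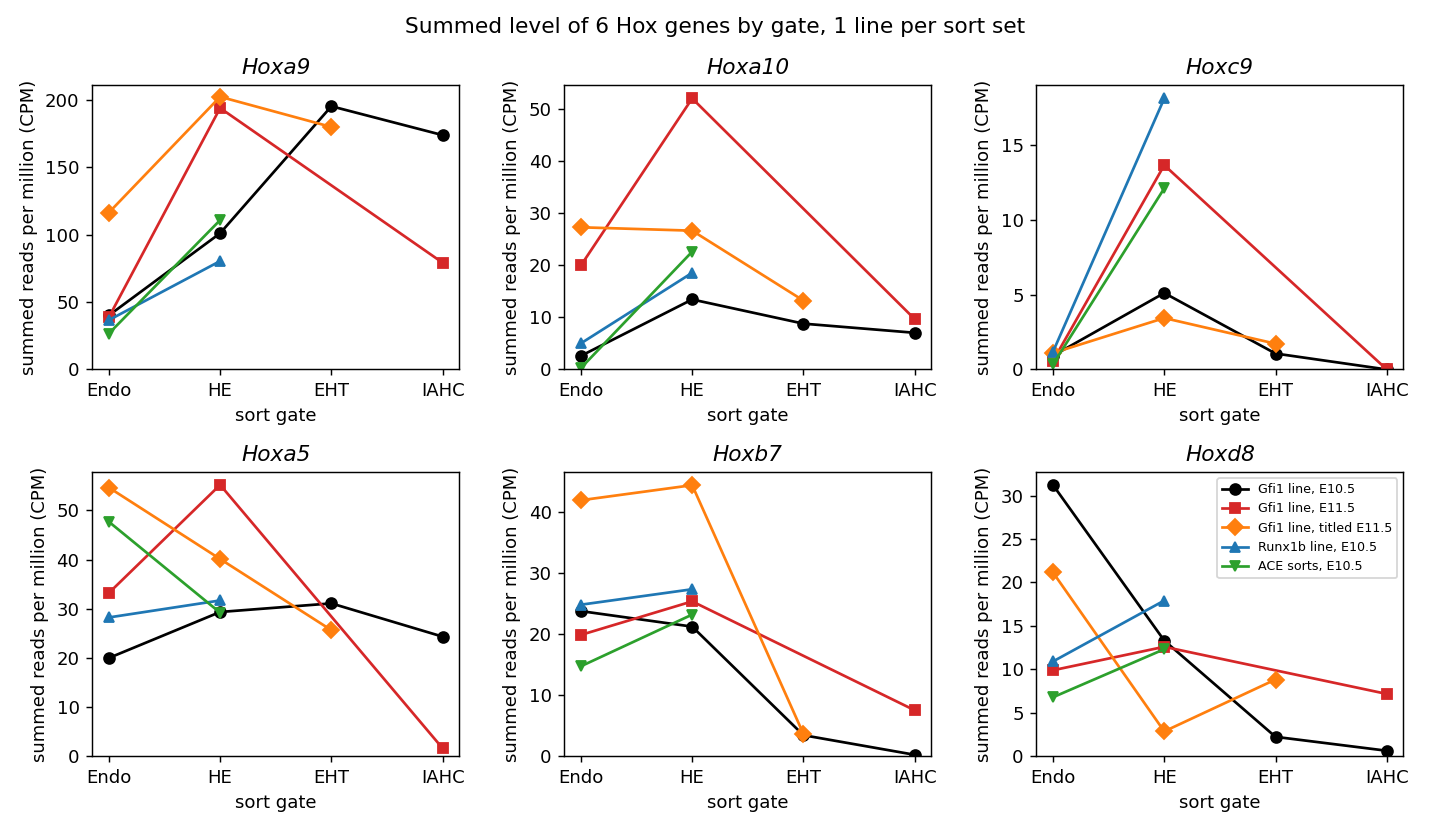
Summed level (CPM) of 6 Hox genes by sort gate, 1 line for each sort set of heterozygous cells, with each axis starting at 0. In every set Hoxa9 is higher in HE than in Endo, and Hoxb7 stands at 21.2 to 44.4 CPM in HE and at 3.45 and 3.65 CPM in EHT.

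The next question was what happens as endothelial cells round up into blood clusters. In the E10.5 Gfi1/Gfi1b line, the part of Hox reads from Hoxa genes was larger, and that from Hoxb genes smaller, at each step from Endo to IAHC. The sums of all Hox genes in that line were 220.6, 268.3, 328.8 and 276.1 CPM in Endo, HE, EHT and IAHC. The Hoxa genes made up 51.5%, 68.9%, 88.7% and 93.3% of these Hox reads, and the Hoxb genes 30.7%, 17.6%, 9.64% and 4.04%. The E10.5 HE sum includes 16 erythroid-like cells with 8.62 CPM of Hox reads, and E10.5 Endo, EHT and IAHC held no such cell. The other E10.5 HE cells summed to 351.6 CPM of Hox reads, above EHT. Hoxa9 alone made up 173.9 of the 276.1 CPM in IAHC. At E11.5 the Hoxa part was 68.2%, 76.5% and 80.4% in Endo, HE and IAHC, and the Hoxb part 19.2%, 12.91% and 12.89%, so the Hoxb part was alike in HE and IAHC. In E11.5 IAHC, 8 of the 22 thinned cells had a Hox read.

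Counted in cells thinned to the same depth, a Hoxa gene was read in 73.97%, 82.1%, 100% and 100% of E10.5 Endo, HE, EHT and IAHC cells. A Hoxb gene was read in 73.97%, 68.4%, 58.5% and 33.3%, and a Hoxd gene in 38.4%, 27.4%, 7.32% and 2.38%. A Hoxc gene was read in 9.59%, 25.3%, 7.32% and 4.76%, highest in HE. Of the E10.5 HE cells, 16 were erythroid-like, and 2 of these had a Hox read before thinning. Cluster shares without them were not computed, and their part in the steps from Endo to HE was not tested. In the titled E11.5 cells, Hoxa shares were 75.6%, 92.3% and 95.2% in Endo, HE and EHT. Hoxb shares were 73.2%, 76.9% and 57.1%, and Hoxd shares 26.8%, 12.8% and 16.7%, neither with a step down at each gate. There the Hoxc share of EHT (21.4%) stood beside that of HE (20.5%). A lower Hoxc share in EHT than in HE was thus seen at E10.5 and not in the titled E11.5 cells.

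**Figure D3:**
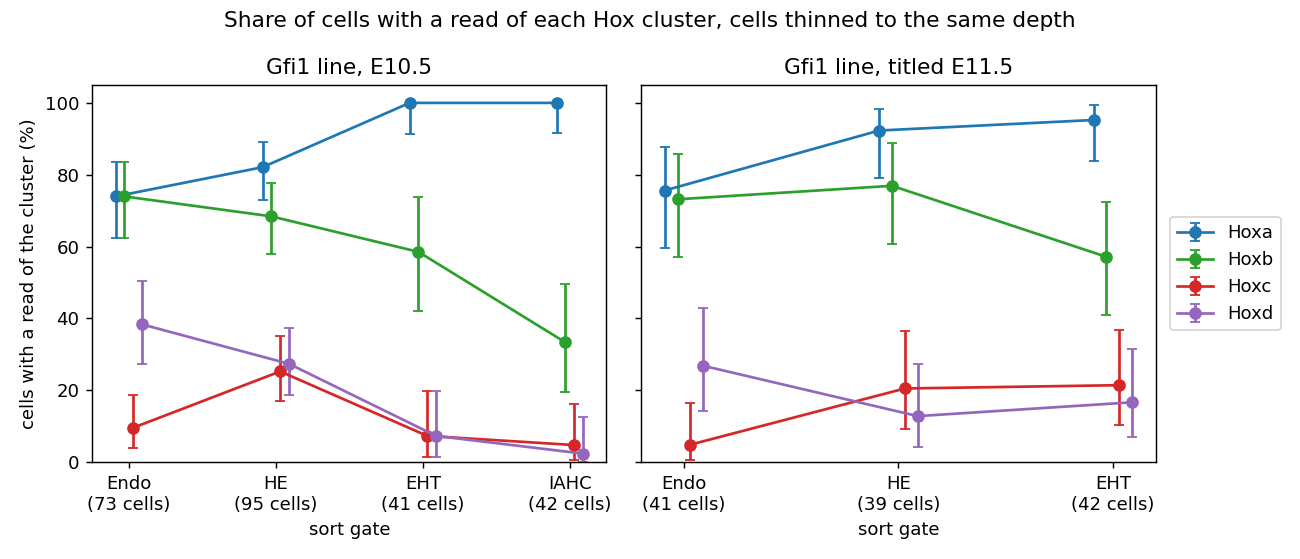
Share of cells (%) with a read of any gene of each Hox cluster, in cells thinned to 100000 reads, with exact 95% binomial intervals for counting error. Left, the E10.5 Gfi1/Gfi1b line; right, the cells titled E11.5. Hoxa (blue) ends at 100% in E10.5 IAHC, where Hoxb (green) is at 33.3% and Hoxd (purple) at 2.38%.

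In the test of EHT against HE, 29 Hox genes were measured and edgeR's quasi-likelihood test called 0 of them, in a comparison where 1 of 17892 genes was called (0.00559%). At an unadjusted p under 0.05 there were 2 Hox genes, Hoxc5 and Hoxb7, both lower in EHT (6.36% of all genes were lower and 4.66% higher at that level). DESeq2 called 3, Hoxb7, Hoxc5 and Hoxc9, all lower, beside 7.94% of all genes in either direction. Of the 29, 23 had a negative fitted difference and 6 a positive one. The median log2 was −1.30 both as fitted and with genes unread in EHT set to the bound that 3 reads per sum allow, against −0.05 over all genes.

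Hoxb7, a trunk gene, was lower in both EHT sums than in any HE sum. The 5 HE sums held 21.2, 25.4, 44.4, 27.4 and 23.2 CPM, and the 2 EHT sums 3.45 and 3.65. The groups did not overlap, nor did those of Hoxa10, Hoxb9, Hoxc9 and some other Hox genes, and the share of all genes without overlap was not computed. The Hoxb7 log2 fold change was −3.00 ± 1.19 with an adjusted p of 0.387 by edgeR. Without the E11.5 set, which holds no EHT sum, the Hoxb7 difference was −3.37 with an adjusted p of 0.0224 by edgeR. That fit called 1.49% of all genes. Without the ACE or the Runx1b set, Hoxb7 did not pass (log2 −2.95 and −3.04, adjusted p 0.509 and 0.481 by edgeR). Those fits called 0% of all genes. Without the E10.5 or the titled E11.5 set, which leaves 1 EHT sum, the Hoxb7 difference was −3.83 and −2.45. Hoxa9 stood at 195.4 and 179.96 CPM in EHT, inside the HE range of 80.4 to 202.4 (log2 0.03 ± 0.40, adjusted p = 1 by edgeR).

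Against HE, the IAHC sums had lower fitted levels for 26 of 29 Hox genes (median log2 −1.69, or −1.71 with unread genes at their bound, against −0.10 over all genes). Hoxc9 fell, in a fit that called 582 genes (3.25% of all, 2.68% downward and 0.576% upward). It was unread in both IAHC sums, which allows up to 0.119 CPM at E10.5 and 0.0349 CPM at E11.5. In the same sets HE held 5.12 and 13.7 CPM, at least 43.2-fold and 392-fold more against a floor of 3 reads in each sum. The adjusted p was 0.0181 by edgeR. The call was lost with thinned cells (adjusted p = 0.0518 by edgeR, 6.57% of all genes called) and without the titled E11.5 set (0.0616, 0.777% called). It was also lost without the E10.5 or the E11.5 set, where 1 IAHC sum was left.

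At an unadjusted p under 0.05 there were 5 Hox genes, all lower in IAHC (11% of all genes were lower and 6.18% higher). Hoxb9 was at 1.58 and 0 CPM in IAHC against 9.08 to 29.8 in HE, and Hoxc4 and Hoxc5 were unread in IAHC. DESeq2 called 6 Hox genes, all lower, among them Hoxb9, Hoxc4, Hoxc5, Hoxc8 and Hoxc9, beside 14.2% of all genes in either direction. Hoxb7 was at 0.237 CPM in E10.5 IAHC and 7.53 in E11.5 IAHC, the latter from 3 of 22 cells. Without the E11.5 set, which leaves 1 IAHC sum, the Hoxb7 log2 fold change was −6.93. Without the E10.5 set, which also leaves 1 IAHC sum, it was −0.71. Hoxa9 overlapped between the gates, at 173.9 and 79.2 CPM in IAHC against 80.4 to 202.4 in HE (log2 0.18 ± 0.39, adjusted p = 0.861 by edgeR).

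The 2 IAHC sums differ in the cells they hold. In the E11.5 group, 2 of 14 erythroid-like cells had a Hox read (11.7 CPM) and 7 of the 8 others did (375.4 CPM), with Hoxa9 at 241.5 CPM in those 8. Between E11.5 and E10.5 IAHC, 6 Hox genes were measured, 1 higher and 3 lower at E11.5 by at least 2-fold, beside 6.62% of all genes higher and 55.7% lower. Hoxa9 was 2.20-fold lower at E11.5 (79.2 and 173.9 CPM), Hoxa7 3.54-fold (12.46 and 44.1) and Hoxa5 15.2-fold (1.60 and 24.3). Without erythroid-like cells Hoxa9 turned to 0.47 higher on the log2 scale, and with cells of at least 10 pan-endothelial genes to 0.32 higher. With 1 sum a group there is no test of these values.

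The highest paralog number read in a cell was taken as a simple measure. No label gives the place of a cell along the body axis, so its relation to position was not tested. In E10.5 Endo thinned to 100000 reads, 50% of 68 Hox-positive cells had a gene of groups 5 to 8 as their highest, 33.8% a group 9 gene and 10.3% a group 10 gene. In HE the shares of 81 cells were 11.1%, 46.9% and 40.7%. In EHT they were 2.44%, 65.9% and 29.3% of 41 cells, and in IAHC 0% (which allows up to 7.14%), 69.05% and 28.6% of 42. Cells with nothing beyond group 8 were thus common in Endo and nearly missing from EHT and IAHC. Hoxa9 and Hoxa10 give most of these calls, so the measure repeats their shares.

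At E11.5 the HE cells went further, with 42.9% at group 9 and 54.3% at group 10 among 35 cells. ACE+ GFI1+ cells had 37.8% and 62.2% of 37, while ACE- GFI1- cells had 61.5% at group 9 and 0 of 13 at group 10, which allows up to 23.1% (3 cells). Groups 11 to 13 were the highest in at most 8.64% of the cells of a group, the heterozygous Mes cells.

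**Figure D4:**
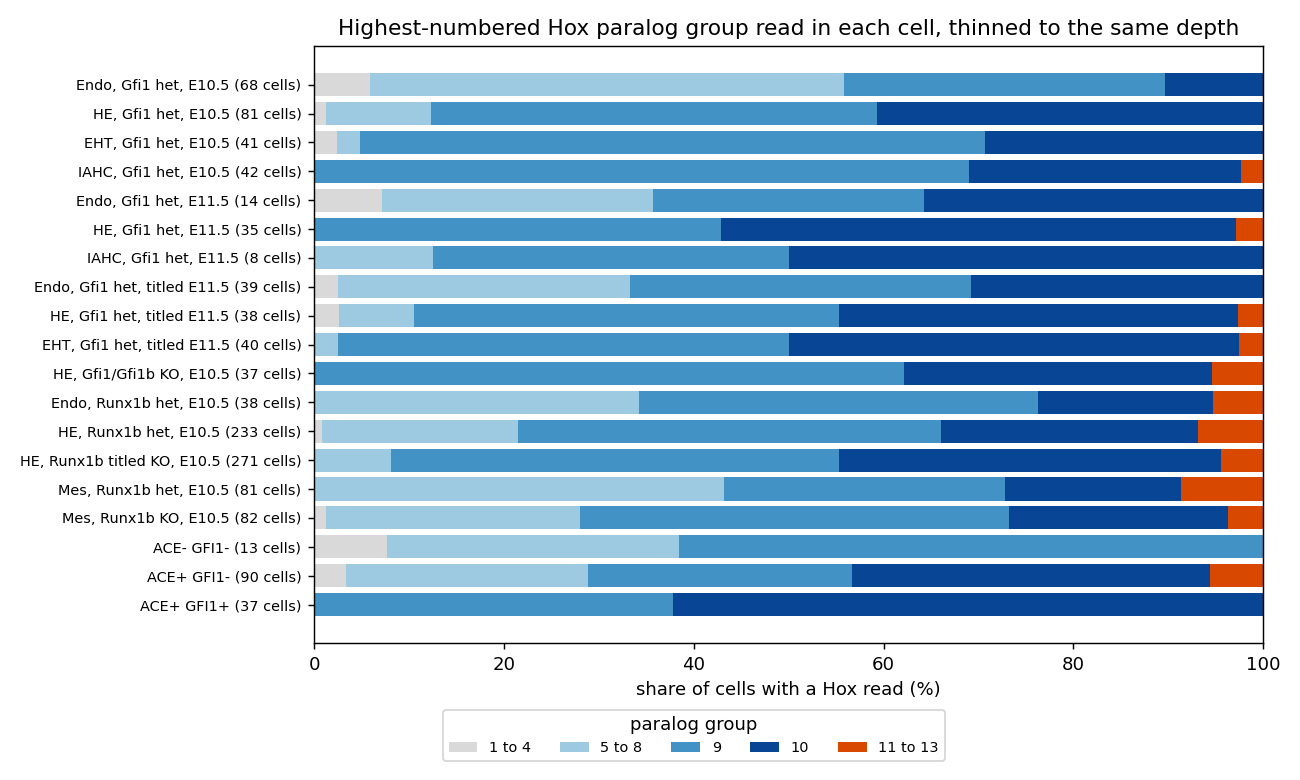
Share of Hox-positive cells (%) by the highest-numbered Hox paralog group read, in cells thinned to 100000 reads, 1 bar per group of cells. The pale blue segment for groups 5 to 8 spans 50% of E10.5 Endo and 2.44% of E10.5 EHT, and the dark blue segment for group 10 is widest in ACE+ GFI1+ cells (62.2%).

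Comparisons of 1 sum against 1 have no replicate check. There a gene counted as measured where the higher group had at least 2 CPM and reads in at least 10% of cells, and as apart at 2-fold. The first is the stage of HE in the heterozygous Gfi1/Gfi1b line. Of 15 Hox genes measured, 6 were higher and 2 lower at E11.5, beside 18.7% of all genes higher and 12.1% lower. Posterior genes were among the higher: Hoxa10 at 51.98 and 13.4 CPM (3.87-fold), Hoxc10 at 10.8 and 2.46 (4.41-fold) and Hoxc9 at 13.7 and 5.12 (2.67-fold). Hoxa3, a gene of the pharyngeal arches, was 3.596-fold higher, Hoxb5 3.21-fold and Hoxb6 2.07-fold. Hoxb4, known for its use to expand blood stem cells in culture, was 9.35-fold lower at E11.5 (0.268 and 2.50 CPM), and Hoxb2, a hindbrain gene, 2.04-fold lower. Few cells carried some of these sums: Hoxc10 was read in 5 of 40 cells at E11.5 and 5 of 95 at E10.5. The E10.5 HE sum also holds 16 erythroid-like cells with 16594496 reads, and the E11.5 HE sum 2 with 309802 reads. The ratios above include these cells. Without them Hoxa9 stood at 132.7 CPM in E10.5 HE and 194.8 in E11.5 HE.

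Endo showed the same direction for Hoxa10, at 19.95 CPM at E11.5 and 2.61 at E10.5 (7.64-fold). Of 18 measured, 6 were higher and 4 lower, beside 12% and 15.4% of all genes. Hoxc10 was 6.36-fold higher, Hoxd9 4.88-fold, Hoxc4 3.32-fold, Hoxa2 3.03-fold and Hoxa3 2.47-fold. Hoxb5 was 5.47-fold lower, Hoxb4 3.78-fold, Hoxd8 3.15-fold and Hoxb8 2.67-fold. The E11.5 Endo group had 16 cells, and 59.8% of its Hoxa10 reads came from 1 cell. In the cells titled E11.5, Hoxa10 stood at 27.3 CPM in Endo and 26.6 in HE.

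The ACE sorts ask where ACE+ endothelium without GFI1 stands between the endothelium and the hemogenic cells. For Hoxa10 and Hoxb9 its sums lay beside those of the ACE+ GFI1+ cells. Against ACE- GFI1- cells, 16 Hox genes were measured, 6 higher and 2 lower, beside 19.5% and 14.5% of all genes. All 5 measured genes of paralog groups 9 and up had higher sums. Before thinning, Hoxa9, Hoxb9 and Hoxc9 were read in a smaller share of the ACE+ GFI1- cells, which had fewer reads (median 504028 per cell against 1149730). Hoxa10 was at 22.7 CPM against 0.274 from 4 reads (82.7-fold), Hoxc9 at 5.76 against 0.343 from 5 reads (16.8-fold), and Hoxb9 at 14.1 against 5.42 (2.60-fold). Hoxc10 was at 5.01 CPM against no read, at least 24.3-fold higher against a floor of 3 reads. Hoxa9 was at 56.6 and 26.7 CPM (2.12-fold), and before thinning was read in 49.1% of ACE+ GFI1- and 64.3% of ACE- cells. In thinned cells Hoxa9 was read in 50 of 97 ACE+ GFI1- and 7 of 13 ACE- cells, and Hoxc9 in 0 of the 13 ACE- cells. Hoxa4 was 7.44-fold lower and Hoxa5 3.02-fold lower. The groups differed in their cells too. At least 10 of 20 pan-endothelial genes were read in 78.4% of ACE+ GFI1- cells, 92.9% of ACE- cells and 100% of ACE+ GFI1+ cells, and the mesenchyme list summed to 216.7, 20.4 and 110.2 CPM. Of 5 measured genes of regional mesoderm, 4 were higher in ACE+ GFI1- than in ACE- cells (median log2 ratio 3.35). The part of these in the Hox values was not tested. The ACE- group had 14 cells, and 19 of the ACE+ GFI1- cells fell under 100000 reads.

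Between ACE+ GFI1+ and ACE+ GFI1- cells the sums were closer. Of 16 measured, 4 were higher with GFI1 and 1 lower, beside 6.57% and 4.92% of all genes. Hoxa7 was at 56.8 and 25.1 CPM (2.27-fold), Hoxa6 at 4.90 and 1.78 (2.75-fold), Hoxa3 2.22-fold and Hoxc9 2.10-fold higher, and Hoxc10 2.49-fold lower. Hoxa9 stood at 110.9 and 56.6 CPM, under the 2-fold mark, yet was read in 97.4% of ACE+ GFI1+ and 49.1% of ACE+ GFI1- cells. Hoxa10 was alike in level, at 22.6 and 22.7 CPM.

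For the cells labelled Gfi1/Gfi1b KO, the targeted genes come first. Gfi1 was read at 218.9 CPM in the KO HE cells and 55.2 in the heterozygous ones, and Gfi1b at 91.6 and 52.1 CPM. Reads of the targeted genes were thus not lower, and counts per gene do not show which part of a transcript was read. Of 16 Hox genes measured, 3 were higher in the cells labelled KO and 3 lower, beside 8.98% and 8.36% of all genes. Hoxd9 was at 11.2 and 1.43 CPM (7.78-fold), Hoxc4 3.37-fold and Hoxa3 2.38-fold higher. Hoxb9 was at 1.68 and 9.13 CPM (5.43-fold lower), Hoxb2 2.64-fold and Hoxc9 2.08-fold lower. Of the Hoxd9 reads, 51.3% came from 1 cell. Hoxa9 was at 144.4 CPM in cells labelled KO and 101.1 in heterozygous cells. Those groups held 9.52% and 16.8% erythroid-like cells.

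In the Runx1b line, the mesenchyme next to the aorta had high Hoxc levels beside its Hoxa levels. In heterozygous Mes cells the highest sums were Hoxc5 (80.1 CPM), Hoxa5 (78.3), Hoxa9 (40.1), Hoxa7 (30.5), Hoxc4 (27.6), Hoxa2 (26.5), Hoxc6 (23.8), Hoxc8 (22.2), Hoxc9 (17.1) and Hoxb9 (16.9). Per kb, Hoxa5 led with 41.7 CPM per kb, ahead of Hoxc5 with 25.9. Hoxa7 stood at 10.6 CPM per kb, below Hoxa2 and Hoxc4. Against Endo of the same line, 21 Hox genes were measured, 16 higher in Mes and 1 lower, beside 17.3% and 11.4% of all genes. All 6 measured Hoxc genes were higher.

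The Hoxc cluster summed to 184.6 CPM in heterozygous Mes, 167.01 in Mes labelled KO and 3.22 in Endo. Hoxc5 was at 80.1 CPM in Mes and 0.474 in Endo (168.9-fold), Hoxc6 117.2-fold and Hoxc8 32.7-fold higher. Hoxc4 was at 27.6 CPM in Mes and had 1 read in Endo. Of the genes outside Hoxc, Hoxb6 was 16.04-fold higher (13.6 and 0.847 CPM). Hoxa9 stood at 40.1 CPM in Mes and 36.7 in Endo, with reads in 27.1% of Mes cells. Hoxd8 was the gene lower in Mes, at 5.19 against 10.9 CPM (2.10-fold).

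Within the Runx1b HE gate, Hoxc reads went with cells that had few endothelial genes. The cells with at least 10 of 20 pan-endothelial genes summed to 28.2 CPM of Hoxc, and a Hoxc gene was read in 44.3% of them after thinning. The others, as many, summed to 90.99 CPM, with reads in 71.8%. Hoxa went the other way, with 281.7 CPM in the former and 122.8 in the latter. The latter held all but 1 of the 31 erythroid-like cells, which had 4.32 CPM of Hox reads, and their part in this difference was not tested. Even in the endothelial part, Hoxc stood above the 3.22 CPM of Endo cells.

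**Figure D5:**
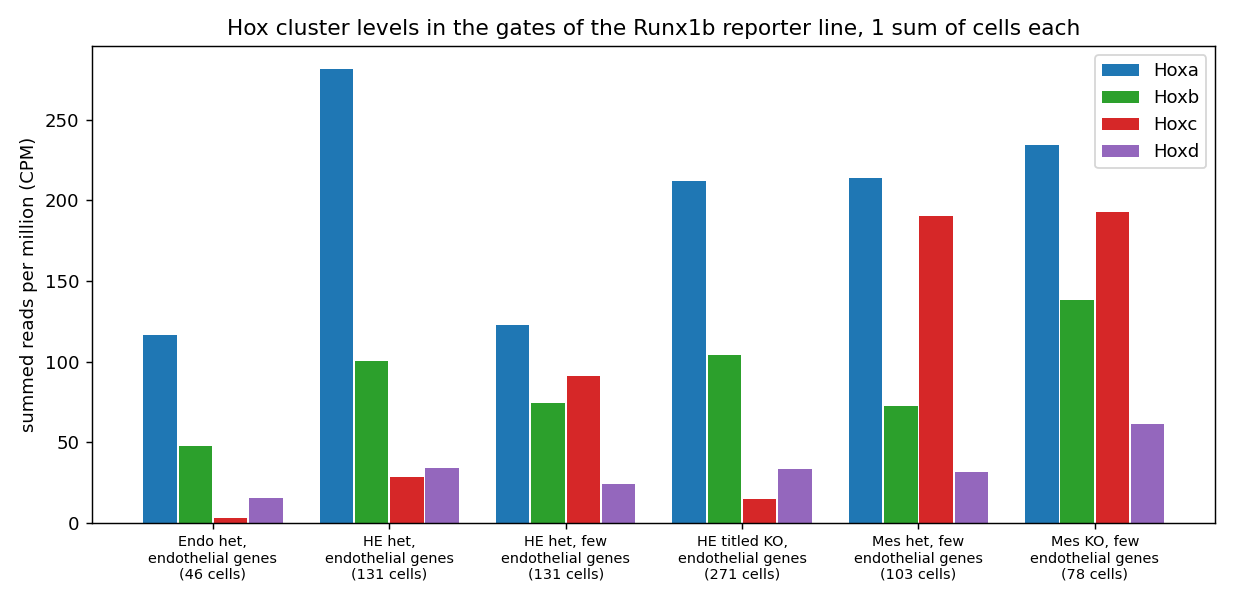
Summed level (CPM, axis from 0) of the 4 Hox clusters in cells of the Runx1b line, 1 bar per cluster and group, with cells split by reads of at least 10 or fewer of 20 pan-endothelial genes. Hoxc (red) is at 3.22 CPM in Endo, 28.2 and 90.99 CPM in the 2 parts of heterozygous HE and 190.1 CPM in heterozygous Mes cells with few endothelial genes.

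The HE cells titled KO were compared with heterozygous HE. Runx1 was read at 1.47 CPM in them and 17.8 in heterozygous HE, and since the title and the genotype field give different genotypes, none is given here. Of 21 Hox genes measured, 0 were higher and 5 lower in the cells titled KO, beside 7.18% and 7.28% of all genes. All 5 are Hoxc genes: Hoxc8 at 0.325 and 10.4 CPM (31.96-fold), Hoxc4 8.75-fold, Hoxc5 6.86-fold, Hoxc9 2.78-fold and Hoxc6 2.65-fold lower. The 2 groups differ in their cells, with at least 10 pan-endothelial genes in 97.8% and 50%, and with 127.7 and 5120 CPM of the mesenchyme list. In cells with at least 10 such genes, log2 ratios were −2.56 for Hoxc8, −2.22 for Hoxc4 and −1.83 for Hoxc5. That of Hoxc9 was −0.71, and that of Hoxc6 turned to 0.14. Hoxa9 stood at 90.7 and 80.4 CPM in the whole groups, and Hoxb7 at 40.2 and 27.4.

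In Mes cells labelled KO, Runx1 was read at 20.1 CPM against 35.3 in heterozygous Mes. Of 24 Hox genes measured, 6 were higher and 1 lower, beside 7.0% and 5.52% of all genes. Hoxd8 was at 26.1 and 5.19 CPM (5.03-fold), Hoxb9 at 44.4 and 16.9 (2.63-fold) and Hoxa7 at 68.4 and 30.5 (2.24-fold). Hoxb8 was 2.92-fold, Hoxa3 2.69-fold and Hoxd9 2.49-fold higher. Hoxc5 was 2.47-fold lower, at 32.4 and 80.1 CPM. The groups held 14.3% and 3.74% cells with at least 10 pan-endothelial genes, and 1.10% and 9.35% erythroid-like cells, and the part of these in the values was not tested.

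The DNA-binding partners of Hox proteins were read beside them. All 9 tested had a positive fitted difference from Endo to HE (median log2 2.34), and 3 rose, beside 0.886% of all genes. Among them, Meis1 rose by 3.94 ± 0.39 (log2, adjusted p = 0.0188) and Meis2 by 2.50 ± 0.16 (adjusted p = 0.0117), both by edgeR with Benjamini-Hochberg adjustment. In heterozygous Mes against Endo of the Runx1b line, 5 of 8 measured partners were higher (median log2 ratio 2.74), beside 17.3% of all genes. The mesenchyme list was higher in the HE sums, and its part in the partner values was not tested. In the E10.5 Gfi1/Gfi1b line, Meis1 stood at 6.17, 83.8, 248.8 and 185.6 CPM in Endo, HE, EHT and IAHC. Meis2 stood at 20.4, 88.5, 32.4 and 9.05 CPM, so the 2 genes part after HE. Against HE, none of the 9 passed in EHT or in IAHC. At an unadjusted p under 0.05 there were 2 and 5, all lower, beside 6.36% and 11% of all genes. DESeq2 called 1 and 5, beside 7.94% and 14.2% of all genes in either direction.

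Of the genes upstream of Hox expression, 7 were tested between HE and Endo and 1 rose, beside 0.886% of all genes. Cyp26b1, which breaks down retinoic acid, rose by 1.84 ± 0.26 (log2, adjusted p = 0.0447 by edgeR). Cyp26a1, of the same function, was at 64.5 and 1.44 CPM in E10.5 HE and Endo (adjusted p = 0.0771 by edgeR over the 4 sets). From HE to IAHC, 8 were tested and 2 fell, beside 2.68% of all genes. The retinoic acid receptor Rara fell by −2.94 (adjusted p = 0.0152) and Cyp26b1 by −2.74 (adjusted p = 0.0359), by edgeR. The caudal genes Cdx1, Cdx2 and Cdx4 had no read in any heterozygous group, which allows up to 3 reads in a sum. Cdx4 was at 14.2 CPM in the HE cells labelled Gfi1/Gfi1b KO and at 1.25 CPM in the HE cells titled KO, which also had 1 read of Cdx2. Cdx1 was at 1.10 CPM in the Mes cells labelled KO.

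Of 19 chromatin regulators of Hox clusters (Polycomb and Trithorax group genes among them), 0 passed between HE and Endo by edgeR. At an unadjusted p under 0.05, 2 were higher and 2 lower (beside 11.4% and 7.96% of all genes). DESeq2 called as many, beside 12.97% of all genes in either direction. Kmt2a, which encodes MLL1, was the 1 of the 19 that passed in IAHC, lower by −1.03 (log2, adjusted p = 0.0252 by edgeR), beside 2.68% of all genes lower. Of 8 tested genes of regional mesoderm, Foxc2, a factor of arterial and paraxial mesoderm, rose in HE by 2.34 ± 0.35 (log2, adjusted p = 0.0490 by edgeR), beside 0.886% of all genes. In heterozygous Mes against Endo of the Runx1b line, 6 of 7 measured genes of that list were higher, beside 17.3% of all genes. The part of mesenchyme in the HE values was not tested. Of 15 tested in IAHC, Tcf15 fell by −2.11 (log2, adjusted p = 0.0193 by edgeR), beside 2.68% of all genes. Of 10 tested neighbours and noncoding RNAs of the clusters, 0 passed between HE and Endo by edgeR. At an unadjusted p under 0.05, 1 was higher (11.4% of all genes), and DESeq2 called 1 (12.97% of all genes in either direction).

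Hoxc reads were also set against Hoxa9 reads in single cells, and the relation differed between groups. In thinned ACE+ GFI1- cells, a Hoxc gene was read in 46% of the 50 cells with a Hoxa9 read and in 8.51% of the 47 without. In heterozygous Mes cells the shares were 96.2% of 26 and 55% of 80, and in E10.5 HE 30.8% of 65 and 13.3% of 30. In Runx1b HE they were 59.1% and 56.8%, and in the HE cells titled KO 33.3% and 32.8%. In E11.5 HE the order was the other way, with 31.2% of 32 and 60% of 5. The ACE+ GFI1- cells held 0 erythroid-like cells, whereas the E10.5 HE, heterozygous Mes and Runx1b HE cells held 16, 10 and 31 of them. Cells of a group share their sort, so the shares are a description with no test.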

How the data were processed

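The deposited values are raw counts of reads per gene and cell. Per the submitters' processing notes, the authors used bcl2fastq, STAR 2.4.2a, HTSeq 0.6.1p1, R 3.6.2 and the GRCm38 build. Cells were summed by sort set and gate, and CPM are reads per 1000000 summed reads over the 36131 genes whole in both tables. edgeR 4.0.16 (quasi-likelihood, TMM, filter on low counts by gate, adjusted p threshold 0.05) tested HE against Endo in 4 sort sets, and EHT and IAHC against HE in a joint fit over 5, of which 2 hold EHT and 2 hold IAHC. The sort set, shared by sums of a line and stage, was the block. The filter was changed to this form after a first fit had been seen. Other comparisons had 1 sum a group and no test. Genes named with values are those past the threshold, the 10 highest by level in the 4 main gates and in Mes, and the largest differences of each comparison of 1 sum with 1; others named (Hoxb7, Hoxc9, Hoxc4, Hoxc5 in tests they did not pass) were chosen after their values were seen. Some genes that this rule names are not reported here. On simulated data for HE against Endo (14553 genes), 52 of 100 genes changed 8-fold and 76 of 100 changed 32-fold were called. The members and lists were chosen with earlier results of these data known. Alternatives were DESeq2 1.42.0, no filter, no block, thinned cells, cells left out and sets left out.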

Additional observations from a re-analysis of the deposited data

Results flagged for a closer look

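Of 22 gene and gate combinations with 5 sums each, 2 held a highest or lowest sum whose gap to its neighbour, divided by the range of the 5, lay above Dixon's 95% critical value, a level at which chance picks about 1 in 20. Hoxa9 in the Endo cells titled E11.5 stood at 116.4 CPM, against 26.7 to 40.2 CPM in the other 4 Endo sums. Hoxb7 in the HE cells titled E11.5 stood at 44.4 CPM, against 21.2 to 27.4 CPM in the other 4 HE sums. Both come from the cells whose title and stage field differ.

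Hoxd4, an anterior gene of the Hoxd cluster, was read only in the table of the ACE sorts and entered no comparison. It was at 0.274 CPM in ACE- GFI1- cells (4 reads, 1 of 14 cells), 0.467 CPM in ACE+ GFI1- cells (26 reads, 10 cells) and 1.49 CPM in ACE+ GFI1+ cells (46 reads, 9 of 39 cells).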

How the results depend on the processing

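DESeq2 called 6 Hox genes for HE against Endo, 3 for EHT against HE and 6 for IAHC against HE, against 1, 0 and 1 with edgeR, and 3055, 1948 and 3486 genes in all, where edgeR called 1.4% of 14553, 1 and 582. Thinned cells gave 2, 0 and 0 Hox genes (6.67%, 1.74% and 6.57% of all genes tested). Without the replicate block, the sort set, the counts were 2, 0 and 1 (442, 76 and 806 genes). Leaving out 1 set gave 0 in every case for HE against Endo (0 to 0.895% of all genes). In the fits that kept 2 sums of the gate, it gave 0 to 1 for EHT (0 to 1.49%) and 0 to 1 for IAHC (0.777% to 2.45%). The low-count filter by gate was chosen after seeing the data; the filter by design, which it replaced, also called Hoxa9 for HE against Endo and Hoxc9 for IAHC. With no filter, Hox genes at least 2-fold apart numbered 17 (HE stage), 16 (Endo stage), 18 (IAHC stage), 16 (Gfi1/Gfi1b KO), 13 (titled KO), 14 (Mes KO), 20 (ACE+ GFI1- against ACE-) and 17 (ACE+ GFI1+). The matching share of all genes was not computed, so these counts have no background to be read against. In cells with pan-endothelial genes, the titled KO cells had 3, and the Hoxc6 log2 ratio turned to 0.14. The IAHC stage ratio of Hoxa9 turned to 0.47 without erythroid-like cells and 0.32 in cells with pan-endothelial genes. Of the single-gene values of comparisons of 1 sum with 1, 310 kept their call, 31 moved and the 3 named turned. Of the values of Hoxa9 and Hoxc9 in the tests where they passed, 19 kept the call and 8 lost it: Hoxa9 without any 1 of the 4 sets, and Hoxc9 in thinned cells and without each of the 3 Gfi1/Gfi1b sets. The causes were not tested. Limits are few sums, no named embryo, 14 to 22 cells in some groups, and genes read in few cells.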
